A study of Mus musculus with 6 samples.

Results

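The proteasome is the large protease that unfolds and cuts proteins marked with ubiquitin, and its genes were followed between myotubes and myoblasts on human short-oligonucleotide arrays. Its 20S core is a barrel of alpha rings, which gate the entry, and beta rings, which hold the cutting sites. The 19S cap that sits on the core has a base, whose ATPases unfold the substrate, and a lid, which removes ubiquitin, while alternative activators can bind the core in place of the cap. In muscle the ubiquitin and proteasome system takes part in the turnover of contractile proteins and in the removal of regulators during differentiation.

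The members were chosen by gene symbol: probe sets annotated with a single symbol that starts with PSMA, PSMB, PSMC, PSMD or PSME and a digit, leaving out the immunoproteasome subunits PSMB8, PSMB9 and PSMB10. Of the 35 symbols with these letters, PSMC3IP and PSME3IP1 name interacting proteins and were kept apart. This left 33 genes with 55 probe sets, of 11963 genes and 22283 probe sets on the array. They comprised 6 alpha subunits, 7 beta subunits, 7 base subunits, 6 lid subunits, the ubiquitin receptor PSMD4, 3 assembly chaperones and 3 activators. PSMA6 and PSME2, whose probe sets carry several symbols, were not analysed here. PSMC5, PSMD7 and PSMD13 were not among the 33 genes either, so counts for the base and lid refer to the members analysed. For each gene the brightest probe set was used, selected on the mean signal over all 6 arrays, a measure that does not use the groups and is given only as a description. These means lay between 2090 and 18479, and 29 of the 33 genes were in the brightest 25% of the genes tested. The choice was close for PSMA1, whose chosen probe set averaged 18479 and the next one 18466.

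Total RNA was labelled with biotin and hybridised to HG-U133A arrays, 3 of myotubes and 3 of myoblasts. By the title of the series both are stages of C2C12, a line of mouse muscle precursors that divide as myoblasts and can fuse to form myotubes with many nuclei, so all arrays stand for 1 cell line; no other treatment, genotype or time of differentiation is stated in the labels. The source label reads myoblast from muscle on the myotube arrays too, and the stage was taken from titles and descriptions. For myoblast array 3 the stage is in the description and not in the title, which leaves its group less certain by the labels than the others. The organism is given as mouse and the array was designed for human transcripts; which species the RNA came from was not settled, and symbols refer to the human genes behind the design. Nothing in the labels says that a group's arrays are separate cultures, and p-values reflect the spread among these arrays alone, possibly a technical one.

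The arrays did not differ by group alone. Across probe sets, on the log2 scale, Pearson's r was 0.988 between myoblast arrays 2 and 3, while myoblast array 1 correlated with them at 0.908 and 0.912 and with myotube array 3 at 0.909. Myotube array 3 also stood apart: it correlated with myoblast arrays 2 and 3 at 0.92 and 0.924, above its 0.902 and 0.908 with myotube arrays 1 and 2. The geometric mean of the spike-in controls was 71439, 33504 and 12320 on myotube arrays 1, 2 and 3 and 48119, 3539 and 4275 on myoblast arrays 1, 2 and 3. The 3 myotube arrays were of a single chip lot without any of the myoblasts, so chip lot and group cannot be told apart. Runs of consecutive laboratory codes, called series here, placed myoblast array 1 with the 3 myotube arrays and myoblast arrays 2 and 3 in a second series. Blocking on the series leaves myoblast array 1 as the comparison for the myotube arrays, and the values of that fit are given beside the results. Of 13 skeletal muscle markers 7 were called higher in myotubes, with summed signals of 35389 to 43642 on myotube arrays and 3007 to 11630 on myoblast arrays, while the defining regulators MYOD1, MYF5, MYOG and MYF6 and the creatine kinase CKM were too dim to be tested. Of 7 fibroblast markers 6 were called higher, with summed signals of 246657 to 359823 in myotubes and 75233 to 132578 in myoblasts. Endothelial markers summed to 2125 to 3188 in myotubes and 904 to 1651 in myoblasts, with CDH5 and KDR at or below the highest unspiked control probe set on all 6 arrays, and the 3 macrophage markers measured were all too dim to be tested (411 to 1651 in myotubes, 281 to 332 in myoblasts). The part of the fibroblast markers in the results below was not tested.

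Most proteasome genes had lower signals in myotubes than in myoblasts. Of the 33 genes 9 fell, 1 rose and 23 did not pass the test (limma, Benjamini-Hochberg adjusted p below 0.05), against 7.09% of all 8161 genes tested called lower and 5.88% called higher. The 9 genes called lower were the alpha subunits PSMA2, PSMA3 and PSMA4, the ATPases PSMC4 and PSMC6, the lid subunits PSMD12 and PSMD14, and the activators PSME3 and PSME4. The 1 called higher was PSME1, an activator subunit. In bulk RNA of this kind, fewer cells of a type and less RNA per cell cannot be told apart.

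The median log2 change of the 33 genes, myotube minus myoblast, was -0.41, with a range from -1.83 to 0.73, and the median of all genes tested was 0.12. In 27 genes the change was below 0 and in 6 above 0, while 43.5% of all genes tested, and 56.1% of the 2825 genes within the range of mean signals of the proteasome genes, had a change below 0. In 19 genes all 3 myotube values lay below all 3 myoblast values, in 2 all lay above and in 12 the groups overlapped; over all genes tested these shares were 16.3% below and 18.5% above. Bright genes as a group stood lower than all genes: those 2825 genes had a median of -0.11, with 14.0% called lower, against 27.3% of the proteasome genes. With quantile normalization the median was -0.26 for the proteasome genes, -0.01 for genes of that brightness and 0.04 for all genes. Array by array, the median deviation of the 33 genes from their own means was -0.26, -0.22 and -0.09 on myotube arrays 1, 2 and 3, and 0.29, 0.24 and 0.17 on myoblast arrays 1, 2 and 3, so every myotube array lay below every myoblast array.

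With the laboratory series as a block only PSME4 remained among the genes called lower, against 1.36% of all genes, none was called higher and the median change was -0.42. The count of 9 became 4 without myotube array 1, 3 without myotube array 2, 5 without myoblast array 2 and 5 without myoblast array 3, and 5 with myoblast arrays 2 and 3 averaged as 1 sample. It was 11 without myotube array 3 and 11 without myoblast array 1. The calls over all genes, 1059 with all arrays, moved as well. They were 504 without myotube array 1, 418 without myotube array 2, 407 without myoblast array 2 and 409 without myoblast array 3. With myoblast arrays 2 and 3 averaged they were 412, without myotube array 3 1235 and without myoblast array 1 2348. The rise to 11 thus came with more calls over all genes.

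**Figure D1:**
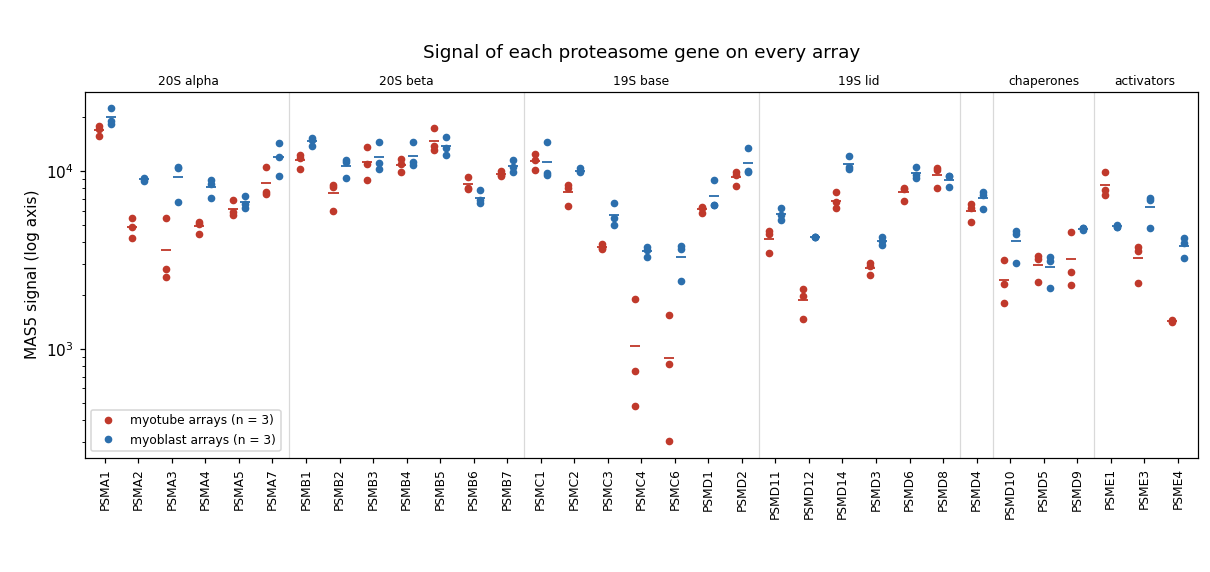
Deposited signal (log axis, arbitrary units) of the 33 proteasome genes on the 3 myotube arrays (red) and the 3 myoblast arrays (blue); horizontal strokes are group means. In 19 genes, among them PSMC4, PSMC6, PSMD12 and PSME4, the red points all lie below the blue ones, and in PSMB6 and PSME1 above.

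**Figure D2:**
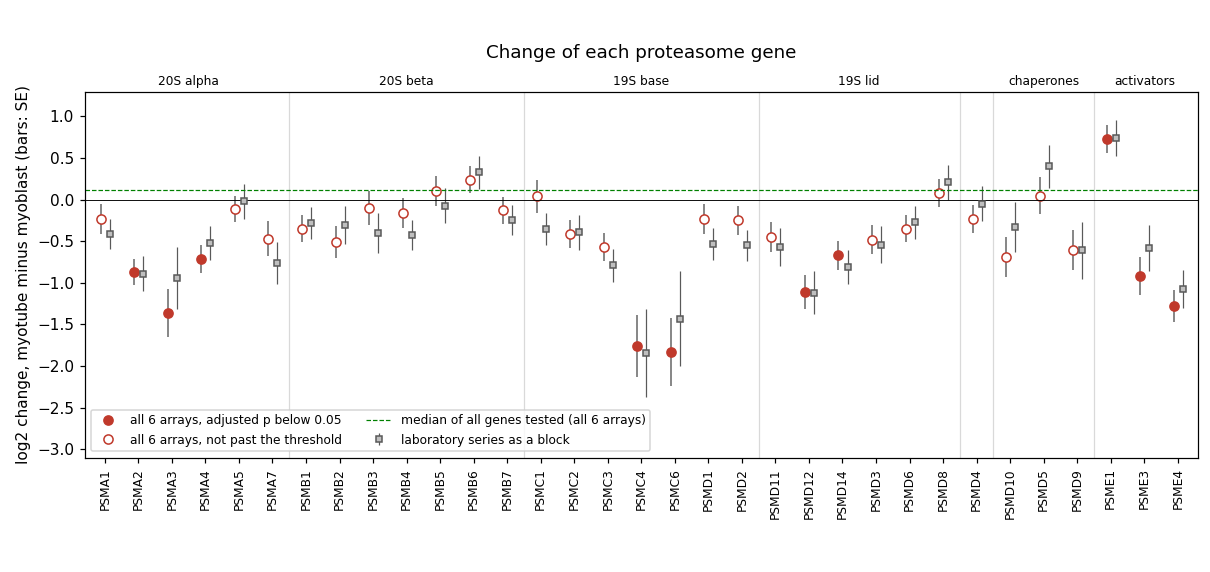
Log2 change, myotube minus myoblast, of each gene with its SE, from all 6 arrays (circles, filled where the adjusted p was below 0.05) and from the fit blocked on laboratory series (squares). The dashed line is the median of all genes tested, 0.12, and 27 of 33 circles lie below 0.

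Among the alpha subunits of the 20S core, which form the outer rings and the gate, 3 of 6 fell and all 6 changes were below 0, with a median of -0.59 on the log2 scale. PSMA2 had signals of 4214, 4870 and 5457 on the myotube arrays, against 9109, 8778 and 9071 on the myoblast arrays. The groups were well apart, and PSMA2 averaged 4847 ± 622 in myotubes and 8986 ± 181 in myoblasts (SD, n = 3 each), a log2 change of -0.87 ± 0.16 (SE), 1.83-fold lower, with a limma adjusted p of 0.00859. PSMA3 had signals of 2798, 2543 and 5427 in myotubes, against 6665, 10396 and 10569 in myoblasts. Myotube array 3 and myoblast array 1 came nearest to each other, and the log2 change was -1.36 ± 0.29, 2.57-fold lower (limma adjusted p = 0.0144). PSMA4 had signals of 4410, 5039 and 5197 in myotubes and 7051, 8480 and 8955 in myoblasts. Its groups did not overlap either, with a log2 change of -0.71 ± 0.17, 1.64-fold lower (limma adjusted p = 0.0218).

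The other alpha subunits did not pass the test. PSMA7 had a log2 change of -0.47 ± 0.21, PSMA1 of -0.23 ± 0.18 and PSMA5 of -0.11 ± 0.16, with limma adjusted p-values of 0.155, 0.375 and 0.648. The PSMA2 call held without each array in turn, with adjusted p up to 0.0454, while PSMA3 lost it without myotube array 1 or 2 (up to 0.0818) and PSMA4 without myotube array 1 or 2 or myoblast array 2 or 3 (up to 0.129). Blocked on the series, the log2 changes were -0.89 for PSMA2, -0.94 for PSMA3 and -0.52 for PSMA4 (limma adjusted p = 0.0628, 0.234 and 0.224).

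None of the 7 beta subunits passed the test, and their median log2 change was -0.13. The 3 that carry the cutting sites had changes of 0.10 ± 0.18 for PSMB5, the chymotrypsin-like subunit, 0.24 ± 0.16 for PSMB6, the caspase-like one, and -0.13 ± 0.16 for PSMB7, the trypsin-like one (limma adjusted p = 0.727, 0.317 and 0.571). PSMB6 had signals of 7967, 8042 and 9229 in myotubes and 6614, 6836 and 7814 in myoblasts, so all its myotube values lay above its myoblast values without the change passing the test. The lowest change of a beta subunit was that of PSMB2, -0.51 ± 0.19 (limma adjusted p = 0.102), followed by PSMB1 with -0.35 ± 0.16 (0.167), and both had myotube values that all lay below the myoblast values. With the probe sets of each gene averaged, the change of PSMB1 turned to 0.17 and that of PSMB2 was -0.02. The average of PSMB1 includes a probe set too dim to be tested, with a change of 1.43. Its tested probe sets had changes of -0.57 and -0.35. PSMB4 had a change of -0.16 and PSMB3 of -0.10, with overlapping groups. By array, the median deviation of the beta subunits was -0.07, -0.07 and -0.08 on myotube arrays 1, 2 and 3 and 0.12, -0.03 and -0.04 on myoblast arrays 1, 2 and 3, while that of the alpha subunits was -0.30, -0.34 and -0.22 in myotubes and 0.27, 0.33 and 0.24 in myoblasts. The difference between the alpha and beta subunits was not tested. With quantile normalization the medians were -0.44 for the alpha and -0.01 for the beta subunits, with the series as a block -0.64 and -0.28, and with probe sets averaged per gene -0.30 and -0.02.

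Of the 7 base subunits 2 fell, both ATPases, and the median log2 change of the base was -0.41. PSMC4 had signals of 754, 476 and 1903 on the myotube arrays, against 3765, 3286 and 3586 on the myoblast arrays. Even the brightest myotube array lay far below the myoblast arrays, and PSMC4 averaged 1045 ± 757 in myotubes and 3545 ± 242 in myoblasts (SD, n = 3 each), a log2 change of -1.76 ± 0.37, 3.39-fold lower (limma adjusted p = 0.0135). PSMC6 had signals of 304, 826 and 1552 in myotubes, against 2403, 3648 and 3808 in myoblasts. Its groups did not overlap, it averaged 894 ± 627 in myotubes and 3286 ± 769 in myoblasts, and its log2 change of -1.83 ± 0.41, 3.55-fold lower, had a limma adjusted p of 0.0181. Of these signals, 1 of PSMC4 and 2 of PSMC6 were at or below the highest unspiked control probe set of their array, a level not told from background. With signals raised to that control level the genes were 2.76-fold and 2.71-fold lower in myotubes.

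PSMC3, another ATPase, lay just outside the threshold, with signals of 3674, 3629 and 3875 in myotubes and 6581, 5464 and 4999 in myoblasts. The groups did not overlap, and the log2 change was -0.57 ± 0.17 (limma adjusted p = 0.0522). PSMC2 had a change of -0.41 ± 0.17 (0.130) and PSMC1 of 0.04 ± 0.20 (0.908), the only ATPase analysed whose groups overlapped. The scaffold subunits PSMD1 and PSMD2, which hold receptors for ubiquitin and shuttle proteins, had changes of -0.23 ± 0.18 (limma adjusted p = 0.397) and -0.25 ± 0.18 (0.354). PSMC4 lost its call without myotube array 1 or 2 (adjusted p up to 0.0658) and PSMC6 without myotube array 2, myoblast array 2 or myoblast array 3 (up to 0.0787). Blocked on the series, the log2 changes were -1.84 for PSMC4 and -1.43 for PSMC6 (limma adjusted p = 0.111 and 0.237).

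In the lid 2 of 6 subunits fell, and the median log2 change was -0.47. PSMD12, a structural lid subunit, had signals of 2180, 1477 and 1982 in myotubes, against 4261, 4242 and 4232 in myoblasts. The 3 myoblast values were almost the same and every myotube value lay far below them, with means of 1880 ± 362 in myotubes and 4245 ± 14.9 in myoblasts (SD, n = 3 each) and a log2 change of -1.11 ± 0.20, 2.16-fold lower (limma adjusted p = 0.00654). PSMD14, the metalloprotease that cuts ubiquitin chains off the substrate, had signals of 6201, 6668 and 7613 in myotubes and 12110, 10278 and 10520 in myoblasts. These groups did not overlap, and the log2 change was -0.67 ± 0.17, 1.59-fold lower (limma adjusted p = 0.0259). The structural subunits PSMD3, PSMD11 and PSMD6 had changes of -0.48, -0.45 and -0.35 (limma adjusted p = 0.0871, 0.113 and 0.163), each with all myotube values below all myoblast values. PSMD8 had a change of 0.08 ± 0.17, with overlapping groups (0.763). The PSMD12 call held without each array in turn (adjusted p up to 0.0355), while PSMD14 lost it without myotube array 1 or 2 or myoblast array 2 or 3 (up to 0.101). Blocked on the series, the log2 changes were -1.12 for PSMD12 and -0.81 for PSMD14 (limma adjusted p = 0.0637 and 0.0672).

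PSMD4, a receptor for ubiquitin chains between base and lid, had a change of -0.23 ± 0.17 on the log2 scale (limma adjusted p = 0.372). The chaperones PSMD10, PSMD9 and PSMD5 help to assemble the base and are not part of the finished particle. PSMD10 had a change of -0.69 ± 0.24 (limma adjusted p = 0.0861), PSMD9 of -0.60 ± 0.24 (0.118) and PSMD5 of 0.05 ± 0.22 (0.880), so none passed the test. With probe sets averaged per gene the change of PSMD9 turned to 0.08.

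**Figure D3:**
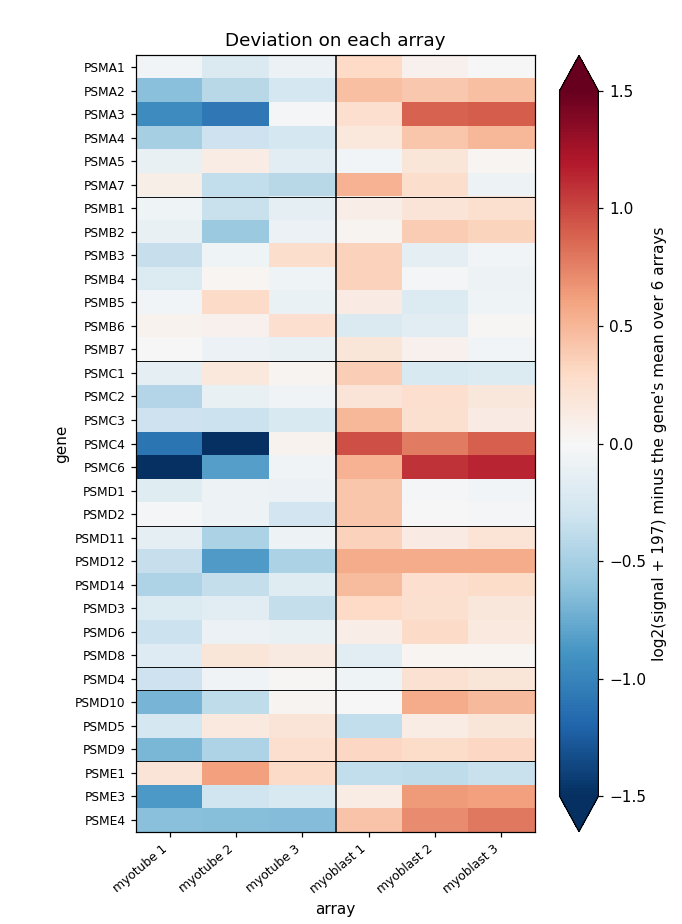
Deviation of each proteasome gene (down the page, by class) on each array (across, myotube arrays left, myoblast arrays right) from its own mean over the 6 arrays, in log2(signal + 197). Blue is below and red above the mean; the median over the genes was -0.26, -0.22 and -0.09 on the myotube arrays and 0.29, 0.24 and 0.17 on the myoblast arrays.

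All 3 activators passed the test, and not in 1 direction. PSME4, a single-chain activator of the core, had signals of 1460, 1438 and 1424 on the myotube arrays, against 3241, 3966 and 4215 on the myoblast arrays. The myotube values were almost the same and less spread than the myoblast values, with means of 1441 ± 17.8 in myotubes and 3807 ± 506 in myoblasts (SD, n = 3 each). The log2 change was -1.28 ± 0.19, 2.43-fold lower, with the smallest adjusted p of the 33 genes (limma, 0.00345). PSME3, which forms the nuclear activator ring, had signals of 2349, 3571 and 3757 in myotubes and 4812, 7016 and 6890 in myoblasts. Its groups did not overlap, and the log2 change was -0.92 ± 0.23, 1.89-fold lower (limma adjusted p = 0.0264). PSME1, the alpha chain of the activator ring that interferon gamma is known to induce, had signals of 7319, 9879 and 7817 in myotubes, against 4869, 4827 and 5002 in myoblasts. Every myotube array was above every myoblast array, with means of 8338 ± 1357 in myotubes and 4900 ± 91.5 in myoblasts and a log2 change of 0.73 ± 0.17, 1.66-fold higher (limma adjusted p = 0.0209).

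The PSME4 call held without each array in turn (adjusted p up to 0.0291) and when the series was blocked (log2 change -1.07, limma adjusted p = 0.0476). PSME1 lost its call when myotube array 2, myoblast array 2 or myoblast array 3 was left out (adjusted p up to 0.0898) and PSME3 without myotube array 1 or 2 or myoblast array 2 or 3 (up to 0.109). With the block the change of PSME1 was 0.74 (limma adjusted p = 0.122) and that of PSME3 shrank to -0.58 (0.321).

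The probe sets of a gene did not always move alike. Of the 55 probe sets 52 were bright enough to be tested; 11 were called lower, against 6.40% of all 13329 probe sets tested, and 1 higher, against 4.93%. Among 14 genes with more than 1 tested probe set, none had all of them called lower, 4 had some and 10 had none. For PSME3 3 of 4 probe sets were called lower, with log2 changes of -0.92, -1.01 and -1.24, and the dimmest had one of -0.72 without passing the test. The second probe set of PSMD12 had a change of -0.72 (limma adjusted p over probe sets 0.0711), and its groups did not overlap either. PSME4 had 2 further probe sets, with changes of -0.87 (0.222) and -0.11 (0.777), and the dimmer probe set of PSMA2 had a change of -0.11 (0.819), all with overlapping groups. When all probe sets of a gene were averaged in place of using the brightest, the change of PSMA2 was -0.49 (limma adjusted p = 0.0993) and that of PSME4 -0.75 (0.0854), so both lost the call. PSMC3, which has no other probe set, kept its change of -0.57 and passed the test in that fit (limma adjusted p = 0.0440). Among tested probe sets, those of PSMA1, PSMA7, PSMB2 and PSMD9 had changes of both signs. Of the 3 probe sets too dim to be tested, that of PSMB1 had a change of 1.43 and that of PSMD4 one of 0.72, opposite in sign to the tested ones of the same gene.

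**Figure D4:**
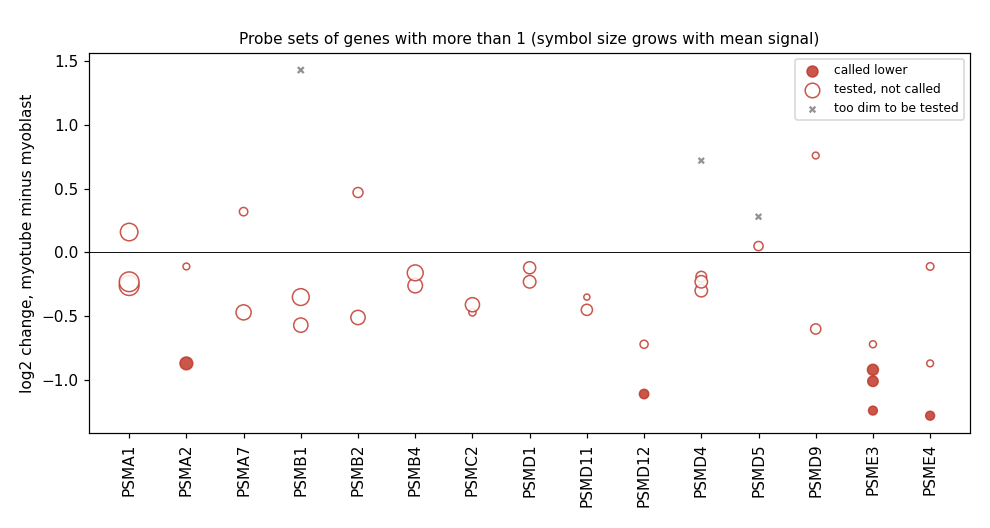
Log2 change, myotube minus myoblast, of every probe set of the genes with more than 1, with symbols that grow with the mean signal. Filled red circles passed the test (11 probe sets over all 33 genes, some of genes with 1 probe set and not drawn here), open circles did not, and crosses mark the 3 probe sets too dim to be tested.

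Proteasome genes are known to be raised together by the transcription factor NFE2L1 when the proteasome is inhibited, through the antioxidant response element in their promoters. The core of that element, TGACNNNGC, was searched on both strands in RefSeq promoter sequences of the mouse build GRCm38.p6, 300 bases from 250 before to 50 after each start. Matched by symbol, 28 of the 33 genes had a sequence; the motif was in 6 of them (21.4%), against 3781 of all 27025 genes (14.0%). It was in 3 of the 9 genes called lower (PSMC6, PSMD12 and PSME4) and in 3 of 18 not called (PSMB5, PSMB6 and PSMD9). Shown 5′ to 3′ on the gene's strand, with the motif on either strand in capitals, are the promoters of the 3 called genes and of 2 subunits with cutting sites that did not pass the test, to set genes that fell beside genes that were not called. They are Psmc6 at chr14:45329574-45329873 (plus strand), Psmd12 at chr11:107479278-107479577 (plus strand), Psme4 at chr11:30771525-30771824 (plus strand), Psmb5 at chr14:54617946-54618245 (minus strand) and Psmb6 at chr11:70525107-70525406 (plus strand). A match is a description of letters, not of a site or a cause.
Psmc6: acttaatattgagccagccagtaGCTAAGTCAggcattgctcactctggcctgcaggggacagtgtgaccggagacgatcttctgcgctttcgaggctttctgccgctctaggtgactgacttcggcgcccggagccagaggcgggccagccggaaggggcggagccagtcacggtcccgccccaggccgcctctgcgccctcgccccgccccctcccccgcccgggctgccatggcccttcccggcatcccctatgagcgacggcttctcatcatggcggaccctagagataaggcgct
Psmd12: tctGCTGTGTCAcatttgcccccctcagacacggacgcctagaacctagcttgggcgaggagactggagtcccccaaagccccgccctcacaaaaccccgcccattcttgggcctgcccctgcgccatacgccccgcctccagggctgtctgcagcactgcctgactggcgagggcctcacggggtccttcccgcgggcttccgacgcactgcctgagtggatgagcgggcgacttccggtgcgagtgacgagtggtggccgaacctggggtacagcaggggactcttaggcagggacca
Psme4: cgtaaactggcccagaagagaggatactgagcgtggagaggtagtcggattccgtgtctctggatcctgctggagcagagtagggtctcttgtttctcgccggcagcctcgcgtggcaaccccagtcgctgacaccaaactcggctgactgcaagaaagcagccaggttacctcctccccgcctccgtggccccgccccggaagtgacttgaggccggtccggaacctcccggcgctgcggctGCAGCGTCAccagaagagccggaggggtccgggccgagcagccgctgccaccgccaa
Psmb5: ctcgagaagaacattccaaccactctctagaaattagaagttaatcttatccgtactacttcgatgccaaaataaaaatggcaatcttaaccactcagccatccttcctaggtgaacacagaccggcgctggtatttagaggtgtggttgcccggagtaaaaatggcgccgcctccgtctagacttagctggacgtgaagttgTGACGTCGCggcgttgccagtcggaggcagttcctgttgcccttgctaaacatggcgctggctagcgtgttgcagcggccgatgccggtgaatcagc
Psmb6: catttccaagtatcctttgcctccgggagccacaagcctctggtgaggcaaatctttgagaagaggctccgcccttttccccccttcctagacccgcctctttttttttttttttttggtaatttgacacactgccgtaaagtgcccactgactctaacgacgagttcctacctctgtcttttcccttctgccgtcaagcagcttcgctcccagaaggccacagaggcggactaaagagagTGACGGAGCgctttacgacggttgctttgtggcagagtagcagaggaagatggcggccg
The first capital base, as printed, was at -227 in Psmc6, -247 in Psmd12, -7 in Psme4, -47 in Psmb5 and -9 in Psmb6, counted from the start. In Psmb5 and Psmb6 the motif reads on the gene's strand. In Psmc6, Psmd12 and Psme4 it reads on the opposite strand, so the capitals show its reverse complement. No other motif was searched, and the sequences are those of the mouse genes, while the probe sets were designed for the human ones.

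NFE2L1 itself rose. Its signals were 11105, 16237 and 14601 on the myotube arrays, against 7931, 7963 and 7307 on the myoblast arrays. All myotube values lay above all myoblast values, with a log2 change of 0.82 ± 0.18, 1.77-fold higher (limma adjusted p = 0.0180). It was the only 1 of 5 measured genes of the NFE2L1 list to pass the test; the list also holds the related factor NFE2L2, partners of the MAF family and NGLY1, the enzyme that removes sugar chains from NFE2L1. The NFE2L1 call was lost on leaving out myotube array 2, myoblast array 2 or myoblast array 3 (adjusted p up to 0.0840), and blocked on the series its change was 0.79 (limma adjusted p = 0.121).

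Of 48 genes of the ubiquitin and proteasome pathway outside the 33, chosen as 8 lists, 36 were measured; 3 fell, 1 rose and 32 were not called, with a median log2 change of -0.29. The share called lower, 8.33%, was near the 7.09% of all genes tested, so the count is not a result about these lists. The 3 that fell were all in a list of 8 other proteins found on the proteasome, which includes the lid constituent SEM1. This list is picked out here by its calls. Its median was -0.56 and all 8 changes were below 0. Of all genes tested 43.5% had a change below 0, and of genes in the brightness range of the proteasome genes 56.1%. USP14, a deubiquitinase on the base, had signals of 5259, 4141 and 5383 in myotubes and 8072, 9808 and 9278 in myoblasts. Its groups did not overlap, and the log2 change was -0.86 ± 0.17, 1.81-fold lower (limma adjusted p = 0.0120). UCHL5, another deubiquitinase of the cap, had signals of 1384, 824 and 1385 in myotubes and 1905, 3924 and 3550 in myoblasts. Here myoblast array 1 was the nearest to the myotubes, and the log2 change was -1.22 ± 0.30, 2.33-fold lower (0.0270), with 1 signal at or below the unspiked controls. SEM1 had signals of 4163, 4174 and 5138 in myotubes and 5890, 7765 and 7335 in myoblasts. These groups did not overlap either, with a log2 change of -0.61 ± 0.18, 1.53-fold lower (limma adjusted p = 0.0487). PSMF1, an inhibitor of the core, had a change of -0.68 ± 0.26 (0.106) with overlapping groups.

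Calls were lost for USP14 when myotube array 2, myoblast array 2 or myoblast array 3 was left out (adjusted p up to 0.0660), and for UCHL5 (up to 0.130) and SEM1 (up to 0.223) without myotube array 1 or 2 or myoblast array 2 or 3. With the series as a block the changes were -0.70 for USP14, -0.62 for UCHL5 and -0.38 for SEM1 (limma adjusted p = 0.132, 0.368 and 0.401).

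The immunoproteasome subunits, which replace the cutting subunits of the core after interferon, were measured apart, and 0 of 3 were called by limma. PSMB9 had signals of 1253, 1473 and 1074 in myotubes and 805, 336 and 458 in myoblasts. All myotube values lay above all myoblast values, and the log2 change was 1.05 ± 0.34 (limma adjusted p = 0.0676). Blocked on the series, the change of PSMB9 was 0.54. Its signal of 805 on myoblast array 1 was at or below the unspiked controls of that array. PSMB10 had signals of 717, 1981 and 1935 in myotubes and 920, 536 and 537 in myoblasts, where myotube array 1 overlapped the myoblasts (log2 change 0.94 ± 0.39, limma adjusted p 0.130). That signal of 717 was at or below the unspiked controls of its array. Blocked on the series, the change of PSMB10 was 0.54. PSMB8 was too dim to be tested, with 112, 151 and 338 in myotubes and 51.8, 38.4 and 42.6 in myoblasts, all at or below the unspiked controls.

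**Figure D5:**
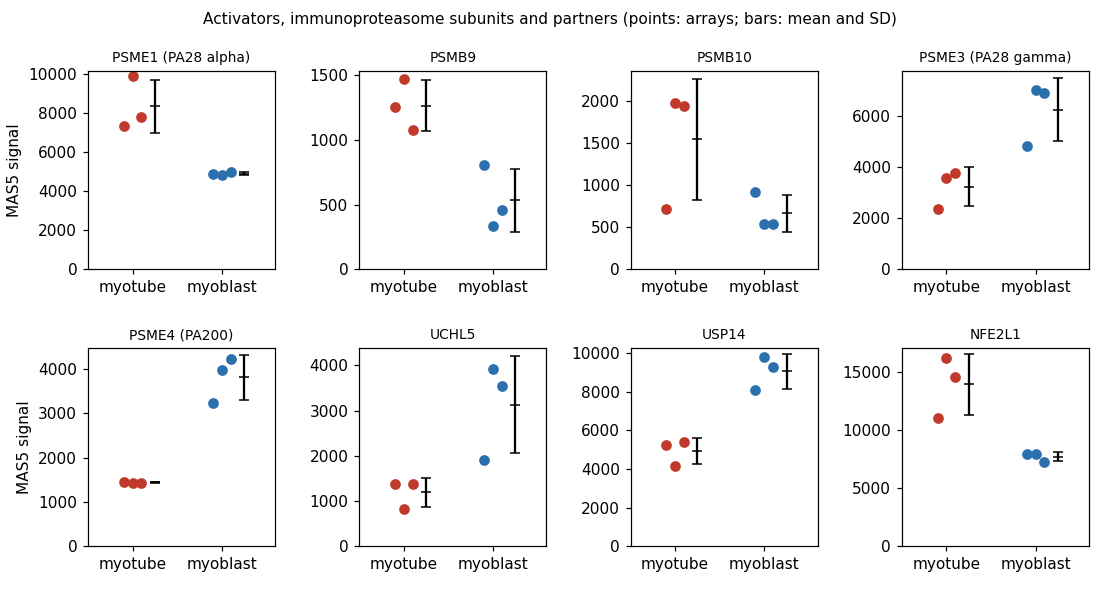
Deposited signal (linear axis from 0) of activators, immunoproteasome subunits and partners on the myotube arrays (left) and myoblast arrays (right), with mean and SD beside the points (n = 3 each). PSME1, PSMB9 and NFE2L1 lie higher in myotubes without overlap, PSME3, PSME4, UCHL5 and USP14 lower, and PSMB10 overlaps.

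The remaining lists held no called gene. Of 4 assembly factors of the core, PSMG2, a chaperone of the alpha ring, had the smallest p (log2 change -0.49 ± 0.18, limma adjusted p = 0.0901), and POMP, the maturation protein of the core, had a change of -0.39 ± 0.19 (0.177). Of 3 ubiquitin shuttles, RAD23B had the smallest p (-0.86 ± 0.37, limma adjusted p = 0.139). Of 3 ubiquitin and E1 enzyme genes, it was UBB, which encodes polyubiquitin (0.63 ± 0.30, limma adjusted p = 0.182). Of 8 genes for VCP, the ATPase that extracts ubiquitin-marked proteins, and its cofactors, it was NPLOC4, a ubiquitin-binding cofactor (0.78 ± 0.23, limma adjusted p = 0.0525). In that list 5 of 8 changes were below 0, and VCP itself had one of -0.62 ± 0.18 (limma adjusted p = 0.0529), with all myotube values below all myoblast values, and the cofactor FAF1 one of -1.45 ± 0.45 (0.0584), with 2 signals at or below the unspiked controls. Of 2 muscle ubiquitin ligases measured, FBXO21 had the smallest p (-0.43 ± 0.21, limma adjusted p = 0.178). Blocked on the series, the changes of PSMG2, RAD23B, UBB, NPLOC4 and FBXO21 were -0.38, -0.16, 0.01, 0.42 and -0.45. With quantile normalization that of UBB was 0.09.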

How the data were processed

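The deposited values are an intensity, 1 linear signal per probe set, which the authors obtained with MAS5, a tool named without a version, per the submitters' processing notes. The run records gave chip lot and laboratory code; the replicate numbers in those of the 3 myoblast arrays differ from the titles, which were followed. Arrays have no read depth; the highest unspiked control probe set, 251.5 to 1040.2 per array, marks the level not told from background, and precision is limited by the number of arrays.

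Of 22283 probe sets 68 were controls and left out. In the 2016 platform annotation 19065 had 1 symbol, 1043 had several and 2107 had none; those with several named no gene. Tests ran on log2(signal + 197); 197 is the table's 25th percentile, and on this scale the fold change of a dim gene is understated. Genes with a mean signal below the 40th percentile of probe set means (474.1) were left out of the tests; all 33 proteasome genes passed. Groups were compared with limma 3.58.1 in R 4.3.3 (lmFit and trended eBayes, two-sided tests, with statmod 1.5.0) over all 8161 genes, with p-values adjusted by Benjamini-Hochberg and 0.05 as the threshold; "called" means past it, "lower" and "higher" refer to myotubes, and ± is the SE after a log2 change and the SD after a mean signal. The script was tested on simulated data. Figures were drawn with matplotlib 3.10.9 in Python 3.11.15.

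The members and lists were chosen with earlier results of these data known. Every proteasome gene is given with its change; signals on every array are given for each one called, for some others in the text and, of each pathway list, for up to 3 called genes per direction or the change of the 1 with the smallest p. PSMB6 and PSMC3 were given by array after their values were seen. VCP and FAF1 were likewise added after their values were seen. PSMB8, PSMB9, PSMB10, PSMF1, SEM1 and POMP are given as neighbours of the symbol rule. Alternatives were quantile and 75th percentile scaling, another pseudocount, no filter, eBayes without trend, the replicate number, chip lot or laboratory series as a block, the first series alone, myoblast arrays 2 and 3 averaged, averaging the probe sets of a gene, signals raised to the unspiked controls, and leaving out each array.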

Additional observations from a re-analysis of the deposited data

How the results depend on the processing

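Over the 19 alternatives all 190 values of the 10 called genes kept their direction, and 131 of them kept the call. The count of 9 proteasome genes called lower became 3 with chip lot as a random block, 1 with the laboratory series as a block and 5 with myoblast arrays 2 and 3 averaged. Leaving out each array gave 3 to 11. The first series has 1 myoblast array, taken to vary as the myotubes do, so only median changes are given for it (-0.42 for all 33 genes). eBayes without trend called 6 lower and 0 higher. The median change of all 33 genes, -0.41, was -0.26 with quantile normalization and -0.21 when probe sets were averaged per gene. That of the 20S core, -0.23, was -0.14 with quantile normalization, -0.11 with the mean of probe sets, and -0.40 both blocked on the series and in the first series alone. That of the base, -0.41, was -0.26 with quantile normalization and -0.55 both blocked on the series and in the first series alone. That of the lid, -0.47, was -0.34 with quantile normalization and -0.56 both blocked on the series and in the first series alone. The cause of these shifts was not tested. Of the 8161 genes tested 1059 were called; 321 were with the chip lot, 259 with the series and 412 with myoblast arrays 2 and 3 averaged, and 407 to 2348 without 1 array. With a replicate block 11 proteasome genes were called lower, adding PSMC3 and PSMD10, and 1628 genes in all; the deviations of same-numbered arrays correlated at 0.256, -0.18 and 0.373, so the numbers were not taken to pair the arrays.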

Other observations

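PSMC3IP and PSME3IP1 carry the letters of the symbol rule and are not proteasome subunits. PSMC3IP, a partner of recombinases in meiosis, had signals of 799, 1298 and 470 on the myotube arrays and 1914, 1879 and 1777 on the myoblast arrays, which did not overlap, with a log2 change of -1.04 ± 0.32 (limma adjusted p = 0.0566). PSME3IP1, which binds the activator PSME3, had signals of 107, 449 and 810 in myotubes and 962, 779 and 862 in myoblasts, where myotube array 3 overlapped the myoblasts (-0.87 ± 0.45, adjusted p 0.212). Of these signals, 1 of PSMC3IP and 2 of PSME3IP1 were at or below the unspiked controls.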
